A study of Mus musculus with 12 samples.

Results

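Matrix metalloproteinases (MMPs) and their tissue inhibitors (TIMPs) were followed in RNA-Seq of mouse colon. The genes were taken by symbol from the count table, which gave 10 of its 54532 genes: Mmp2, Mmp3, Mmp9, Mmp10, Mmp13, Mmp14, Mmp15, Timp1, Timp2 and Timp3. All 10 were among the 16904 genes that passed edgeR's filter on low counts. The 12 libraries came from colon of wild-type male C57BL/6J mice, described as 5 weeks old when procured, with 3 libraries in each of 4 groups. The mice were acclimated before the experiments, and their age at tissue collection was not stated. The control group received no dextran sulfate sodium (DSS), a sulfated polysaccharide that is toxic to the gut lining and brings on acute colitis. The model group received DSS alone, the Rhy group received DSS and the alkaloid rhynchophylline (Rhy), and the DXM group received DSS and the glucocorticoid dexamethasone (DXM). The experiment of 60 mice used DXM at 4 mg/kg and Rhy at 2, 4 or 8 mg/kg, and which of these Rhy doses was sequenced is not labelled. The colitis is a chemical injury, and the position along the colon from which each piece was cut was not stated. The labels give the libraries of a group as separate samples but do not say that each came from its own mouse, so p-values measure the spread between these samples.

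Library totals ran from 15662589 to 16601454 counts in the control group, 15544386 to 16948352 in the model group, 14346478 to 16303944 in the Rhy group and 16072006 to 17749716 in the DXM group. Levels are given as CPM, the count scaled to a fixed library total on the TMM scale, in the order of libraries 1, 2 and 3 of each group. At this depth a count of 0 allows a level of up to 0.145 to 0.257 CPM, which is 3 counts per library and covers counting error only. Some libraries stood apart. Model 1 and model 2 were the closest pair of libraries by a wide margin, with a common dispersion (edgeR's variance beyond counting noise) of 0.00201, against 0.0604 to 0.351 in the other 65 pairs. Between them, 16.5% of 15996 genes passed the 95% point of a chi-square test, where counting noise alone gives 5%. They were kept as separate libraries, and whether they share tissue or RNA is not stated, so the spread of the model group may be smaller than that of 3 unrelated samples. Hoxb13, a homeobox gene of the distal colon, was at 0.165 CPM in control 3, 1.49 CPM in model 3 and 0 CPM in Rhy 1, against at least 71.97 CPM in the other 9 libraries. The summed level of 6 B cell markers was 1.11 CPM in Rhy 1 and 10.5 CPM in control 3, against 101 to 164 CPM elsewhere. Mitochondrial genes took 6.33% of the counts in control 3 and 25.7% in DXM 1, the lowest and the highest share of the 12 libraries. The part of these differences in the results was not tested, and values without these libraries, or with model 1 and model 2 as 1 library, are given where a call or a count moved.

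MMPs are zinc-dependent endopeptidases that cut collagens, proteoglycans and other proteins of the extracellular matrix. Most are secreted as inactive precursors and gain activity when a propeptide is removed, while the membrane-type enzymes, such as those encoded by Mmp14 and Mmp15, act at the cell surface. TIMPs bind the active site of MMPs and block it. In the injured gut, stromal and inflammatory cells are known sources of MMPs, which take part in matrix breakdown and in wound repair. The RNA level measured here does not report how much enzyme was active.

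Genes of the stromelysins Mmp3 and Mmp10 and of the collagenase Mmp13 lie close together. In GRCm38 they are Mmp3 (ENSMUSG00000043613, chr9:7445822-7455975, plus strand), Mmp10 (ENSMUSG00000047562, chr9:7502352-7510240, plus strand) and Mmp13 (ENSMUSG00000050578, chr9:7272514-7283331, plus strand). The count table holds 10 Mmp genes on chromosome 9, which span 427 kb, and 4 of them passed the filter (Mmp3, Mmp10, Mmp12 and Mmp13). Mmp1a and Mmp1b had 0 reads in all 12 libraries, and Mmp7, Mmp8, Mmp20 and Mmp27 had 53, 27, 4 and 13 reads in total. RefSeq promoter windows of 300 bases around the gene start, on build GRCm38.p6, matched 8 of the 10 genes, all but Mmp2 and Mmp9. Motifs searched on both strands were TGANTCA (AP-1), TATAAA (the TATA box), GGGCGG (the GC box) and AGGAAG (PEA3), none of which contains another. TGANTCA was found in Mmp3, Mmp10 and Mmp13 and in 7.81% of all 32851 windows of the same length. TATAAA was found in these 3 genes too, and in 13.6% of all windows. GGGCGG was found in Mmp14, Mmp15, Timp1, Timp2 and Timp3, and in 35.7% of all windows. AGGAAG was found in Mmp3, Mmp13, Mmp14, Timp1 and Timp3, and in 35.4% of all windows. The 3 windows of the chromosome 9 genes held 37.7 to 43.7% G and C, and the other 5 held 55 to 68.7%. The 100 bases before the start are printed 5′ to 3′ for the chromosome 9 genes, with TGANTCA and TATAAA in capitals, and for Mmp14 and Timp2 as examples of the genes without TGANTCA in the window, with GGGCGG in capitals. The start is that of RefSeq, which can differ from the count table's gene coordinates, and for Timp2 the printed stretch lies within the gene interval of that table. Timp2 is on the minus strand and the others are on the plus strand.
Mmp3, chr9:7445722-7445821: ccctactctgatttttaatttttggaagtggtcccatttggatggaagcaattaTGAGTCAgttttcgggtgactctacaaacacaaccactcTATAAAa
Mmp10, chr9:7502242-7502341: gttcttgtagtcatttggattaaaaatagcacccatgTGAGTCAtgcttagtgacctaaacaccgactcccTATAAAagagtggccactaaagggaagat
Mmp13, chr9:7272414-7272513: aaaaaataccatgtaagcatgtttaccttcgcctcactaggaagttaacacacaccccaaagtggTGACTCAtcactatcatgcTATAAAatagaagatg
Mmp14, chr14:54431498-54431597: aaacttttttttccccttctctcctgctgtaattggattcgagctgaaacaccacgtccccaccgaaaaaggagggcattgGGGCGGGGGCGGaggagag
Timp2, chr11:118355412-118355511: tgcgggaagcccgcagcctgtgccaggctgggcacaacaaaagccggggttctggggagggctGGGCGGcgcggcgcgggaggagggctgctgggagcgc
A match is a description of letters, and binding to these promoters was not measured.

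The other genes are Mmp2 (ENSMUSG00000031740, chr8:92827291-92853420, plus strand), Mmp9 (ENSMUSG00000017737, chr2:164940780-164955850, plus strand), Mmp14 (ENSMUSG00000000957, chr14:54431612-54445364, plus strand) and Mmp15 (ENSMUSG00000031790, chr8:95352268-95375080, plus strand) among the MMPs, and Timp1 (ENSMUSG00000001131, chrX:20870166-20874735, plus strand), Timp2 (ENSMUSG00000017466, chr11:118301069-118355740, minus strand) and Timp3 (ENSMUSG00000020044, chr10:86300372-86349506, plus strand) among the inhibitors. Levels per length, in the deposited FPKM, gave an order over the 12 libraries that differed between the groups. Averaged over the 12 libraries, Timp2 had 22.7 ± 7.22 FPKM (SD, n = 12), Mmp15 had 20.01 ± 7.57 FPKM and Mmp2 had 10.6 ± 5.34 FPKM. Mmp14 followed with 4.88 FPKM, Timp1 with 2.57 FPKM and Timp3 with 2.24 FPKM. Mmp3 had 1.05 FPKM, and Mmp13, Mmp10 and Mmp9 were the lowest at 0.667, 0.379 and 0.346 FPKM. The ranges of all neighbours in this order overlapped. Timp2 was above Mmp15 in 8 of 12 libraries, Timp1 above Timp3 in 6 of 12 and Mmp10 above Mmp9 in 5 of 12, so the order of these pairs is not set. In the control group the mean of Mmp15 (27.2 FPKM) was above that of Timp2 (19.2 FPKM), and Mmp3 (0.413 FPKM) was below Mmp13 (1.06 FPKM), Mmp10 (0.566 FPKM) and Mmp9 (0.486 FPKM). The low genes rest on few reads, 135 for Mmp10, 244 for Mmp9, 373 for Mmp13, 404 for Mmp3 and 472 for Timp1 over all 12 libraries. Timp1 lies within Syn1 and Timp3 within Syn3 on the opposite strand, and Timp2 overlaps Cep295nl on its own strand. The use of strand in the counting was not stated, so reads of these neighbours cannot be told apart with certainty. Syn1 had 2.77 to 10.01 CPM and Syn3 had 0.300 to 2.31 CPM.

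**Figure D1:**
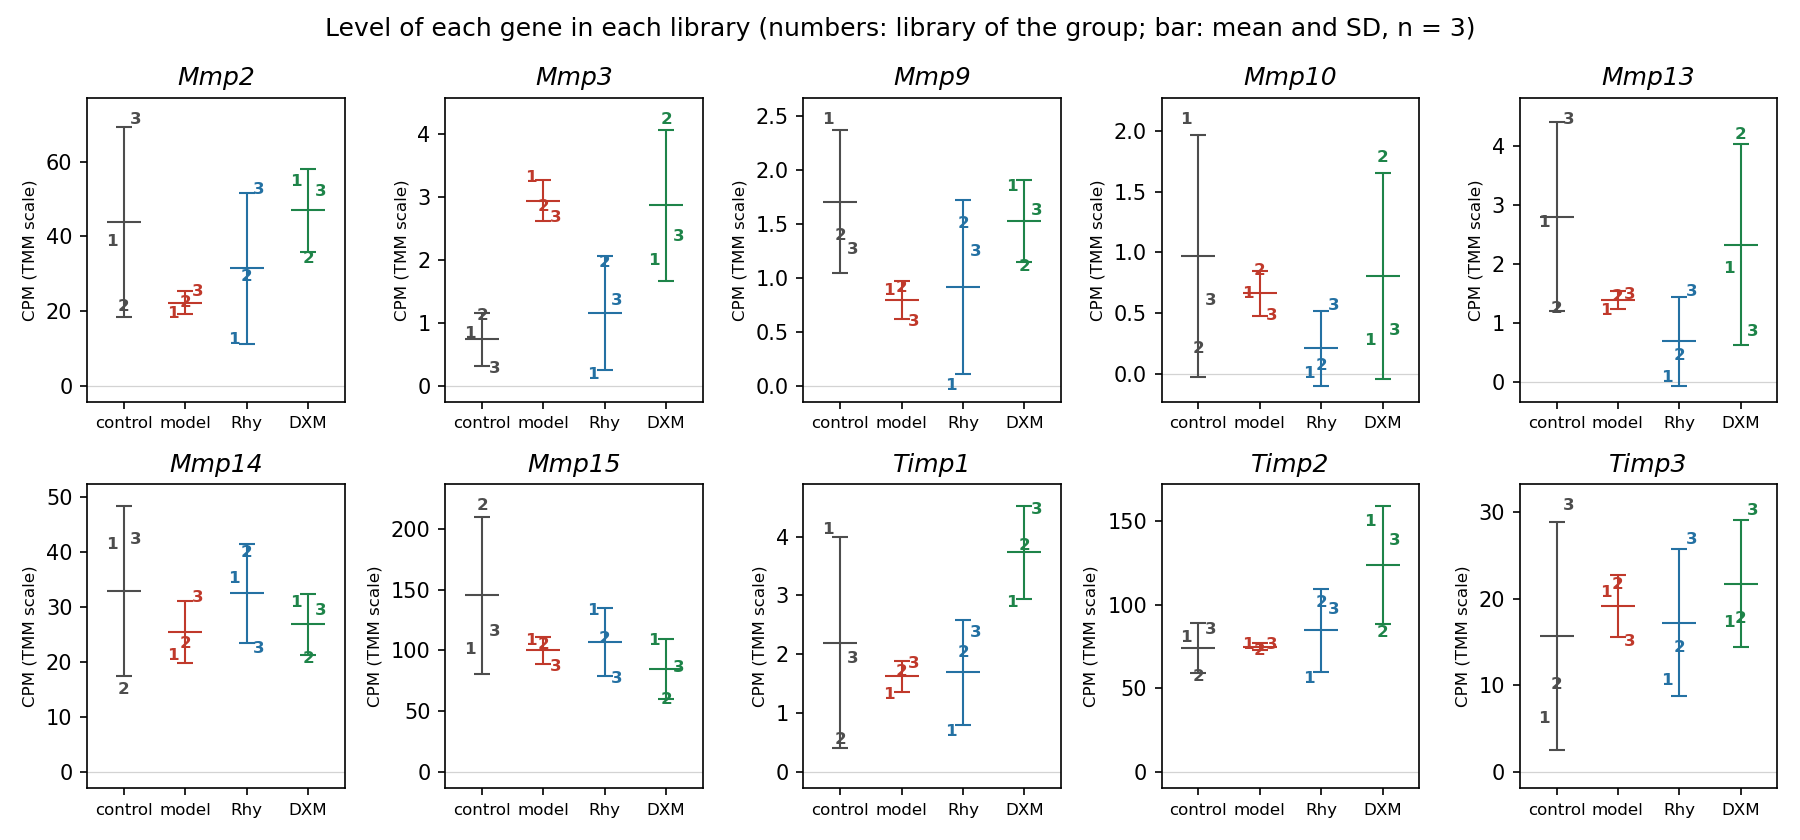
Level of each of the 10 genes in CPM on the TMM scale (vertical axis) in the 4 groups (horizontal axis). Each number is a library, and the bars give the mean and SD of 3 libraries. The model libraries lie close together, and the control, Rhy and DXM libraries spread widely for most genes.

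The effect of DSS was addressed by comparing the model group with the control group. Here X versus Y gives the log2 fold change as X over Y. Mmp3 differed most. It had 0.737 ± 0.426 CPM (SD, n = 3) without DSS and 2.95 ± 0.325 CPM (SD, n = 3) with DSS, a fitted 4.02-fold higher level. Means were lower in the model group for 7 of the 10 genes, all but Mmp3, Timp2 and Timp3. In edgeR, 0 of the 10 reached an adjusted p under 0.05, as did 0 of all 16904 genes tested (0%). At an unadjusted p under 0.05, 1 of the 10 genes passed, Mmp3, against 9.62% of all genes (1626), of which 5.11% were higher and 4.51% lower in the model group. With RLE scaling the split of all genes was 666 higher and 980 lower, against 863 and 763 with TMM. DESeq2 called 46 genes at an adjusted p under 0.05, none of them among the 10, and limma on log2(FPKM + 1) called 0. The libraries of the groups did not overlap for 2 of the 10 genes, Mmp3 and Mmp9, against 17% of all genes. The count of all genes at an unadjusted p under 0.05 in edgeR was 888 without model 1 and 2811 without control 3. Of the 10 genes, those at this limit numbered 2 without control 1 or Rhy 3 and 3 without control 2 or Rhy 1, and without control 3 the p of Mmp3 was 0.0526. The median log2 fold change of the 10 was -0.48, beside 0.01 for all genes, and with single libraries left out it was -0.80 without control 2 to -0.14 without control 1.

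The effect of Rhy in DSS colitis was addressed by comparing the Rhy group with the model group. Means were lower in the Rhy group for Mmp3, Mmp10, Mmp13 and Timp3 and higher for the other 6 genes. Mmp2 had 31.4 ± 20.2 CPM (SD, n = 3) in the Rhy group. In edgeR, 0 of the 10 genes and 0 of all genes (0%) had an adjusted p under 0.05, while DESeq2 called 5 genes, none among the 10, and limma 0. At an unadjusted p under 0.05, 0 of the 10 passed in edgeR, against 3.72% of all genes (628), with 1.74% higher and 1.98% lower. With RLE scaling 338 were higher and 286 lower, against 294 and 334 with TMM, so the larger side depended on the scaling. DESeq2 and limma each gave 1 of the 10 at this limit, Mmp3. The groups did not overlap for 1 of the 10, Mmp3, against 11.5% of all genes. The count of all genes at an unadjusted p under 0.05 in edgeR was 289 without model 1 and 1066 without Rhy 1. Of the 10 genes, those at this limit numbered 1 without Rhy 2 and 2 without Rhy 3. The 2 were Mmp10 and Mmp13, which reached the CPM that the filter requires, 0.610, in no Rhy library but Rhy 3. Here and below, that limit is taken on library totals before TMM scaling, so it is not on the scale of the printed levels. On the TMM scale Mmp10 had 0.566 CPM in Rhy 3. The median log2 fold change of the 10 was 0.09, beside -0.01 for all genes, and with single libraries left out it was -0.16 without Rhy 3 to 0.20 without Rhy 1. This comparison shares the model libraries with the comparison of the model and control groups.

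DXM served as the reference drug and was compared with the model group in the same way. Means were higher in the DXM group for 8 of the 10 genes, all but Mmp3 and Mmp15. Timp2 had 124 ± 35.4 CPM (SD, n = 3) after DXM and 75.1 ± 2.22 CPM (SD, n = 3) after DSS alone. In edgeR, 0 of the 10 and 0 of all genes (0%) had an adjusted p under 0.05, DESeq2 called 53 genes, none among the 10, and limma 0. At an unadjusted p under 0.05, 2 of the 10 passed in edgeR, Mmp2 and Timp2, both higher, against 7.69% of all genes (1300), of which 4.89% were higher and 2.8% lower. The groups did not overlap for 4 of the 10, Mmp2, Mmp9, Timp1 and Timp2, all higher in the DXM group, against 22.6% of all genes. The count of all genes at an unadjusted p under 0.05 in edgeR was 537 without DXM 3 and 1834 without control 1. Of the 10 genes, those at this limit numbered 0 without model 2, DXM 1 or DXM 3 and 1 without model 1, model 3 or Rhy 2, and without control 1 the p of Mmp2 was 0.0562. The median log2 fold change of the 10 was 0.51, beside -0.01 for all genes, and with single libraries left out it was 0.27 without DXM 2 to 0.65 without DXM 3. With model 1 and model 2 summed into 1 library, 0 of the 10 genes had an unadjusted p under 0.05 in edgeR.

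Both drug groups were also set against the control group, which these comparisons share. Between the Rhy and control groups, edgeR gave 0 genes at an adjusted p under 0.05 (0%) and DESeq2 gave 33, none among the 10, while limma gave 0. At an unadjusted p under 0.05, 1 of the 10 passed in edgeR, Mmp13, which was lower, against 11.6% of all genes (1953), 6.46% higher and 5.09% lower. With RLE scaling 991 of all genes were higher and 988 lower, against 1092 and 861 with TMM. The groups overlapped for all 10 genes, and did not overlap for 12.3% of all genes. Between the DXM and control groups, edgeR gave 0 genes at an adjusted p under 0.05 (0%) and limma gave 0. DESeq2 gave 1058, among them Mmp3 with an adjusted p of 0.0482, which edgeR put at 0.175. At an unadjusted p under 0.05, 3 of the 10 passed in edgeR, Mmp3 and Timp2 higher and Mmp15 lower, against 18.9% of all genes (3189), 8.68% higher and 10.2% lower. With RLE scaling 1226 of all genes were higher and 1933 lower, against 1467 and 1722 with TMM. The groups did not overlap for 1 of the 10, Mmp3, against 18.7% of all genes. A test of any difference among the 4 groups gave 0 of the 10 and 0 of all genes (0%) at an adjusted p under 0.05 in edgeR, and 407 genes in DESeq2 and 0 in limma. At an unadjusted p under 0.05 it gave 1 of the 10, Mmp3, against 11.5% of all genes (1941). The medians of the 10 log2 fold changes were -0.40 for Rhy versus control and -0.03 for DXM versus control, beside -0.03 and 0.06 for all genes. With 1 library left out, the edgeR counts of all genes at an unadjusted p under 0.05 were 1195 without Rhy 2 and 2938 without control 3 for Rhy versus control, 1639 without DXM 3 and 4075 without control 1 for DXM versus control, and 1142 without DXM 3 and 2655 without Rhy 1 for any difference. Of the 10 genes, the number was 0 without Rhy 1 or Rhy 2 and 2 without control 2 or Rhy 3 for Rhy versus control, and without control 3 the p of Mmp13 was 0.120. Without Rhy 3 the 2 were again Mmp10 and Mmp13, with few reads in the other Rhy libraries. For DXM versus control it was 1 without DXM 2 or DXM 3, and the p of single genes was over 0.05 without control 3 (0.0556) and DXM 2 (0.0615) for Mmp3, control 2 (0.0775), DXM 1 (0.0747) and DXM 3 (0.0587) for Timp2 and control 2 (0.239), DXM 2 (0.124) and DXM 3 (0.0632) for Mmp15. For any difference the number was 0 without control 1, model 1, model 2 or model 3, 2 without Rhy 1 or Rhy 2 and 3 without Rhy 3.

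**Figure D2:**
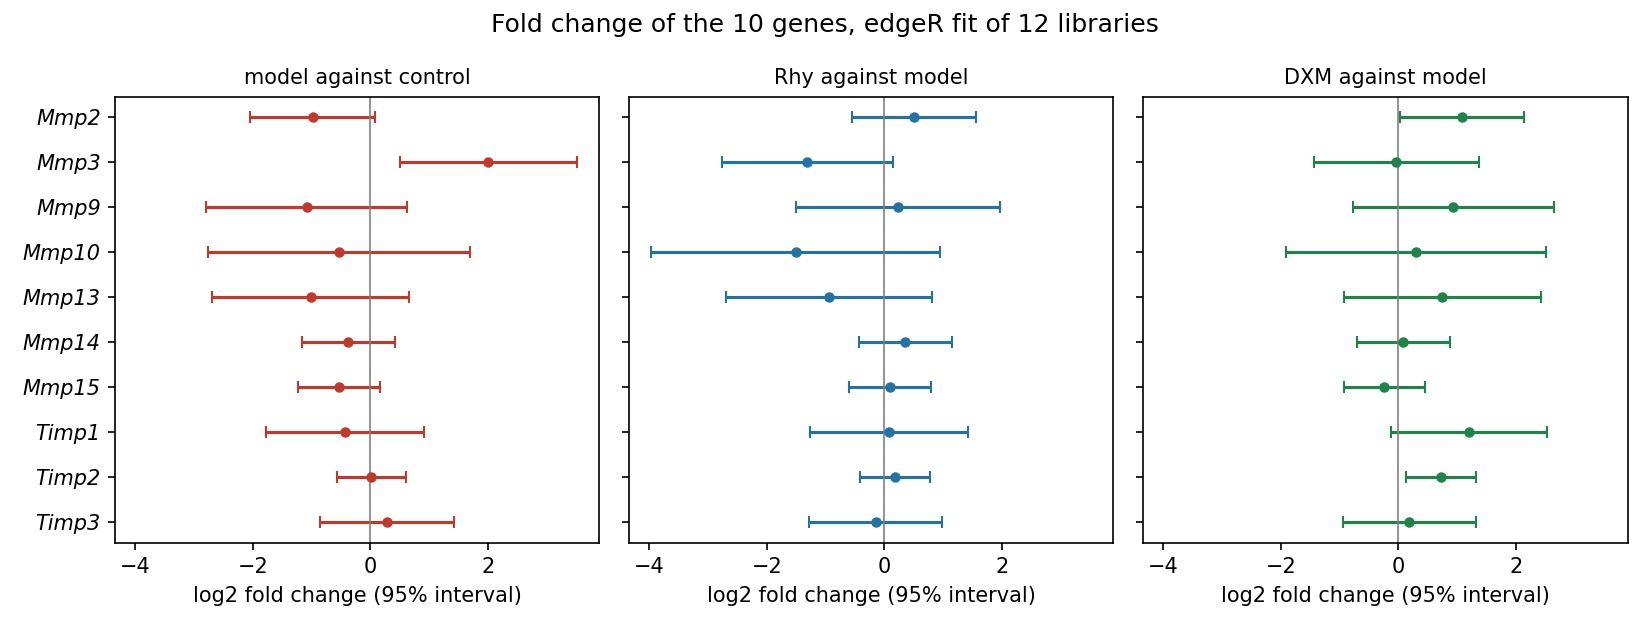
Log2 fold change of the 10 genes (horizontal axis, with the 95% confidence interval of the edgeR fit) in 3 comparisons. The interval lies above 0 for Mmp3 in model versus control (0.49 to 3.52) and for Mmp2 (0.02 to 2.14) and Timp2 (0.13 to 1.32) in DXM versus model, before adjustment for the number of genes.

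Stromelysin-1, encoded by Mmp3, degrades proteoglycans, fibronectin and basement membrane proteins and activates other MMP precursors. Mmp3 had 0.824, 1.11 and 0.274 CPM in controls 1 to 3, 3.31, 2.85 and 2.68 CPM in models 1 to 3, 0.171, 1.96 and 1.36 CPM in Rhy 1 to 3, and 1.99, 4.24 and 2.38 CPM in DXM 1 to 3. Every model library lay above every control library and above every Rhy library, and the DXM libraries lay above the control libraries and overlapped the model libraries. The lowest DXM library and the highest Rhy library were nearly level. Control 3, model 3 and Rhy 1, all low in Hoxb13, held the lowest values of their groups, and no DXM library was low in Hoxb13. The part of this in the differences between groups was not tested. Model versus control gave a log2 fold change of 2.01 (standard error 0.69), with an unadjusted p of 0.0137 and an adjusted p of 0.479 in edgeR. The log2 fold change was 1.57 without control 3 to 2.45 without control 2, and 1.98 with model 1 and model 2 as 1 library. The unadjusted p in edgeR, in brackets, was over 0.05 without control 3 (0.0526). Rhy versus model gave a log2 fold change of -1.31 (standard error 0.67), with an unadjusted p of 0.0729 and an adjusted p of 1.000 in edgeR. This value was -1.88 without Rhy 2 to -0.83 without Rhy 1, and -0.87 without the 3 libraries low in Hoxb13, a choice made after the data were seen. The unadjusted p of this difference was 0.0456 in DESeq2 and 0.0204 in limma, and in edgeR it was under 0.05 without Rhy 2 (0.0330). The edgeR p was also 0.0480 with genes of any count, 0.0483 with the replicate number as a block and 0.0140 with a term for low Hoxb13, and 0.108 without the low-Hoxb13 libraries. For DXM versus control Mmp3 had a log2 fold change of 1.97 (standard error 0.69), with an unadjusted p of 0.0148 and an adjusted p of 0.175 in edgeR, and the unadjusted p was over 0.05 without control 3 (0.0556) and DXM 2 (0.0615). DXM versus model gave -0.03 (standard error 0.64) with a 95% confidence interval of -1.43 to 1.36, and -0.43 without DXM 2 to 0.17 without DXM 1.

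Stromelysin-2, encoded by Mmp10, has substrates like those of stromelysin-1, and Mmp13 encodes collagenase-3, which cuts fibrillar collagen. Mmp10 had 2.10, 0.209 and 0.604 CPM in controls 1 to 3, 0.662, 0.849 and 0.477 CPM in models 1 to 3, 0, 0.0653 and 0.566 CPM in Rhy 1 to 3, and 0.274, 1.78 and 0.354 CPM in DXM 1 to 3. Its highest values were in control 1 and DXM 2, 0 reads were counted in Rhy 1, and the groups overlapped. Mmp13 had 2.70, 1.25 and 4.45 CPM in controls 1 to 3, 1.21, 1.46 and 1.49 CPM in models 1 to 3, 0.0856, 0.457 and 1.53 CPM in Rhy 1 to 3, and 1.92, 4.19 and 0.861 CPM in DXM 1 to 3. Control 3 and DXM 2 were the highest, Rhy 1 and Rhy 2 were the lowest, and the groups overlapped. For Mmp13 Rhy versus control gave a log2 fold change of -1.96 (standard error 0.80), with an unadjusted p of 0.0315 and an adjusted p of 0.395 in edgeR. Leaving out single libraries moved this value from -3.27 without Rhy 3 to -1.46 without control 3, and it was -0.98 without the 3 libraries low in Hoxb13 (unadjusted p 0.265 in edgeR). With single libraries left out, the edgeR p was over 0.05 without control 3 (0.120), Rhy 1 (0.0784) and Rhy 2 (0.0937), and it was 0.0578 with only the 2 groups compared. For Mmp10 in Rhy versus model the log2 fold change was -1.51 (standard error 1.13), with a 95% confidence interval of -3.97 to 0.94. It was -1.02 without Rhy 1 and a fitted -3.93 without Rhy 3 (unadjusted p 0.0264 in edgeR). Rhy 1 and Rhy 2 held 0 and 1 reads of Mmp10 and 1 and 7 reads of Mmp13. In neither library did these genes reach the 0.610 CPM that the filter requires. Values and p without Rhy 3 for both genes in this paragraph therefore rest on few reads, and are not taken as sizes or calls. Mmp13 in Rhy versus model had -0.95 (standard error 0.80) and an unadjusted p of 0.261 in edgeR, and the value was -2.26 without Rhy 3 to -0.47 without Rhy 1, with p under 0.05 without Rhy 3 (0.0272). Against the control group Mmp10 had -2.04 (standard error 1.12) in the Rhy group (unadjusted p 0.0943 in edgeR), with p under 0.05 without control 2 (0.0493). This value was -0.84 without control 1 and a fitted -4.46 without Rhy 3 (unadjusted p 0.0137 in edgeR), under the limit given above.

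The gelatinases, encoded by Mmp2 and Mmp9, cut denatured collagen and type IV collagen. Mmp2, a product mainly of fibroblasts and other stromal cells, had 38.6, 21.3 and 71.3 CPM in controls 1 to 3, 19.2, 22.1 and 25.3 CPM in models 1 to 3, 12.4, 29.3 and 52.6 CPM in Rhy 1 to 3, and 54.6, 34.2 and 52.1 CPM in DXM 1 to 3. The control and Rhy libraries spread more widely than the model libraries, and every DXM library lay above every model library. For DXM versus model this was a log2 fold change of 1.08 (standard error 0.49), with an unadjusted p of 0.0469 and an adjusted p of 0.646 in edgeR. The value was 0.96 without DXM 1 to 1.26 without DXM 2, and 1.03 with model 1 and model 2 as 1 library, where the unadjusted p in edgeR was 0.103. This p was also over 0.05 without control 1 (0.0562), model 1 (0.117), model 2 (0.0927), model 3 (0.0654), Rhy 2 (0.0580), DXM 1 (0.111) and DXM 3 (0.0985). The unadjusted p was 0.0552 in edgeR with a term for low Hoxb13, and in limma it was 0.0602 on log2(FPKM + 1), 0.0625 on log2(FPKM + 0.1) and 0.0691 on all genes with FPKM above 0. Model versus control gave a log2 fold change of -0.98 (standard error 0.49), with an unadjusted p of 0.0674 and an adjusted p of 0.547 in edgeR. This value was -1.31 without control 2 to -0.46 without control 3, and p was under 0.05 without control 2 (0.0191), Rhy 1 (0.0293) and Rhy 3 (0.0413). In DESeq2 its unadjusted p was 0.0373, and in edgeR it was 0.0226 with genes of any count and 0.0446 with only the 2 groups compared. Rhy versus model gave 0.51 (standard error 0.48) for Mmp2, which was -0.09 without Rhy 3 to 0.88 without Rhy 1, so its sign rested on Rhy 3, and 1.02 (unadjusted p 0.0236 in edgeR) without the 3 libraries low in Hoxb13. Fewer cells of a type and less RNA per cell cannot be told apart in pieces of whole colon, for Mmp2 or for the other genes.

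Mmp9 is known from neutrophils and macrophages, which release it on activation. Mmp9 had 2.47, 1.39 and 1.26 CPM in controls 1 to 3, 0.882, 0.910 and 0.596 CPM in models 1 to 3, 0, 1.502 and 1.24 CPM in Rhy 1 to 3, and 1.85, 1.11 and 1.62 CPM in DXM 1 to 3. All model libraries lay below all control libraries and below all DXM libraries, while Rhy 1, with 0 reads, lay outside the range of the other 11 libraries. The libraries low in Hoxb13 (control 3, model 3 and Rhy 1) held the lowest Mmp9 values of their groups, and the part of this was not tested. The log2 fold change was -1.09 (standard error 0.79) in model versus control (unadjusted p 0.192 in edgeR) and 0.93 (standard error 0.78) in DXM versus model (unadjusted p 0.259 in edgeR). The 95% confidence intervals were wide, -2.81 to 0.63 and -0.78 to 2.64, and 244 reads of Mmp9 were counted over the 12 libraries. With only the 2 groups compared, the unadjusted p of Mmp9 in edgeR was 0.0476 in model versus control and 0.0478 in DXM versus model. Without Rhy 1 the log2 fold changes were -1.09 (unadjusted p 0.0297 in edgeR) in model versus control and 0.93 (unadjusted p 0.0557 in edgeR) in DXM versus model. Leaving out single libraries gave -1.30 without control 3 to -0.73 without control 1 in model versus control and 0.77 without DXM 1 to 1.11 without DXM 2 in DXM versus model. The model versus control value was -1.14 (unadjusted p 0.0492 in edgeR) without the 3 libraries low in Hoxb13. In Rhy versus model the log2 fold change was 0.23 (standard error 0.80) with all libraries, -0.28 without Rhy 2 to 0.78 without Rhy 1, and -0.04 with a term for low Hoxb13, so its sign was not stable.

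Membrane-type MMPs act at the cell surface, and the product of Mmp14 activates the Mmp2 precursor together with TIMP2. Mmp14 had 41.4, 15.02 and 42.3 CPM in controls 1 to 3, 21.1, 23.3 and 31.8 CPM in models 1 to 3, 35.1, 39.8 and 22.4 CPM in Rhy 1 to 3, and 30.8, 20.5 and 29.3 CPM in DXM 1 to 3. Control 2 was the lowest and control 1 and control 3 were the highest, so that the control group spanned the other 3 groups. None of the 5 comparisons gave an unadjusted p under 0.05 for Mmp14 in edgeR, and the log2 fold changes ran from -0.38 to 0.35. The sign turned with 1 library left out in 2 of these 5. Without control 2 they were -0.72 (unadjusted p 0.0272 in edgeR) in model versus control and -0.64 (unadjusted p 0.0447 in edgeR) in DXM versus control. Mmp15 had 100.4, 219 and 116 CPM in controls 1 to 3, 108, 105 and 86.9 CPM in models 1 to 3, 133, 109.7 and 77.2 CPM in Rhy 1 to 3, and 108, 59.5 and 86.04 CPM in DXM 1 to 3. Control 2 was far above the other libraries and DXM 2 was the lowest. For DXM versus control Mmp15 gave a log2 fold change of -0.78 (standard error 0.32), with an unadjusted p of 0.0323 and an adjusted p of 0.226 in edgeR, and -0.35 without control 2. With single libraries left out, the unadjusted p in edgeR was over 0.05 without control 2 (0.239), DXM 2 (0.124) and DXM 3 (0.0632). It was also over 0.05 with only the 2 groups compared (0.0570). Model versus control gave -0.54 (standard error 0.32) for Mmp15, -0.75 without control 1 to -0.11 without control 2, with an unadjusted p of 0.0425 in edgeR without control 1.

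TIMP1 and TIMP2 are secreted inhibitors, and TIMP3 is bound to the matrix. Timp1, which inflammatory stimuli induce in many tissues, had 4.12, 0.556 and 1.92 CPM in controls 1 to 3, 1.32, 1.70 and 1.85 CPM in models 1 to 3, 0.685, 2.02 and 2.38 CPM in Rhy 1 to 3, and 2.88, 3.86 and 4.46 CPM in DXM 1 to 3. Every DXM library lay above every model and Rhy library, and control 1 lay within the DXM range. DXM versus model gave a log2 fold change of 1.20 (standard error 0.61), with an unadjusted p of 0.0738 and an adjusted p of 0.663 in edgeR, and the value was 1.05 without DXM 3 to 1.35 without DXM 1. The unadjusted p of Timp1 was 0.0454 in DESeq2, and in edgeR it was under 0.05 without control 1 (0.0418) and control 2 (0.0303), with genes of any count (0.0498) and with only the 2 groups compared (0.00559). DXM versus control gave 0.77 (standard error 0.61) for Timp1, 0.31 without control 2 to 1.57 without control 1, with an unadjusted p of 0.0262 in edgeR without control 1. Timp2 had 80.6, 56.95 and 85.1 CPM in controls 1 to 3, 76.4, 72.5 and 76.3 CPM in models 1 to 3, 55.99, 101 and 97.04 CPM in Rhy 1 to 3, and 149.8, 83.6 and 139 CPM in DXM 1 to 3. The model libraries were nearly level, and every DXM library lay above them, although DXM 2 also lay below Rhy 2, Rhy 3 and control 3. For DXM versus model Timp2 gave a log2 fold change of 0.72 (standard error 0.27), with an unadjusted p of 0.0211 and an adjusted p of 0.637 in edgeR, and the value was 0.57 without DXM 1 to 0.94 without DXM 2. The unadjusted p in edgeR was 0.0518 with model 1 and model 2 as 1 library, and it was over 0.05 without model 2 (0.0569), DXM 1 (0.0822) and DXM 3 (0.0645). Against the control group the DXM group gave 0.74 (standard error 0.27) for Timp2 (unadjusted p 0.0190 in edgeR), which was 0.58 without control 2 to 0.96 without DXM 2, and p was over 0.05 without control 2 (0.0775), DXM 1 (0.0747) and DXM 3 (0.0587). For model versus control Timp2 had a log2 fold change of 0.02 (standard error 0.27) with TMM and -0.04 with RLE, and -0.14 without control 2 to 0.10 without control 3, so its sign depended on the scaling and on single libraries.

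Timp3 had 6.22, 10.2 and 30.8 CPM in controls 1 to 3, 20.7, 21.7 and 15.1 CPM in models 1 to 3, 10.5, 14.4 and 26.8 CPM in Rhy 1 to 3, and 17.3, 17.7 and 30.2 CPM in DXM 1 to 3. Its lowest value was in control 1 and its highest in control 3, so that the control group alone spanned the other groups. The log2 fold change was 0.28 (standard error 0.52) in model versus control, -0.10 without control 1 and 1.20 without control 3 (unadjusted p 0.0168 in edgeR). No comparison gave an unadjusted p under 0.05 for Timp3 in edgeR with all libraries. Without control 3 Timp3 also had 1.07 (unadjusted p 0.0284 in edgeR) in Rhy versus control and 1.38 (unadjusted p 0.00794 in edgeR) in DXM versus control. Without the 3 libraries low in Hoxb13 the unadjusted p in edgeR was 0.00885, 0.00927 and 0.00513 for the model, Rhy and DXM groups against the control group. Ranked by mean CPM, the DXM group was the highest of the 4 groups for Mmp2, Timp1, Timp2 and Timp3, the control group for Mmp9, Mmp10, Mmp13, Mmp14 and Mmp15, and the model group for Mmp3. Neighbouring groups in these orders overlapped in every case but the DXM and Rhy groups for Mmp3.

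Across the 12 libraries some genes varied together. The points share library depth, group and tissue makeup, and model 1 and model 2 differ little, so r is a description of log2 CPM with n = 12. Of the 45 pairs, 10 had r over 0.5 and 2 had r under -0.5, and the median was 0.23. Mmp10 and Mmp13 were the most alike (Pearson r 0.80, Spearman rho 0.66), and r was 0.73 for the deviations from the group means. Mmp3, the other chromosome 9 gene, had r of 0.32 with Mmp10 and 0.21 with Mmp13. Mmp2 and Timp2 came next (Pearson r 0.74, Spearman rho 0.81), with 0.83 within groups. Mmp15 and Timp1 went in opposite directions (Pearson r -0.78, Spearman rho -0.67), with -0.83 within groups. Without the 2 libraries farthest from the median of Mmp10, of Mmp2 and of Mmp15, r was 0.73, 0.82 and -0.59 for these pairs. Other pairs with r over 0.5 held less evenly in this step. Mmp2 had 0.74 with Timp1, 0.58 with Mmp9 and 0.16 with Mmp13. Mmp9 had 0.61 with Timp2, 0.23 with Timp1 and -0.15 with Mmp13. Timp1 had 0.49 with Timp2 and 0.27 with Mmp10.

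Genes with the most similar pattern were sought among all 16904 genes by Pearson r of log2 CPM over 12 libraries. For Mmp2 they were Mrc2 (0.94), Lamb1 (0.94), Anxa13 (0.94), Egr1 (0.94) and Igkv10-96 (0.93). For Mmp3 they were Myrf (0.96), Unc5c (0.92), Fam111a (0.92), Bfsp2 (0.92) and Ccdc134 (0.92), of which Myrf reached 0.868 CPM at most and Bfsp2 1.10 CPM. Mmp9 was most like P2ry13 (0.95), Itgb2 (0.95), Rdh16 (0.94), Csf1r (0.94) and Amz1 (0.93). Its log2 CPM was -2.55 in Rhy 1 and -0.48 to 1.39 in the other libraries. The r values of Mmp9 may rest on Rhy 1, which was not tested. Mmp2 and Mmp3 also had their lowest log2 CPM in Rhy 1, at 3.65 and -1.55. For Mmp15 the list was Etv3 (0.94), Gab1 (0.93), Prkcd (0.92), Plscr4 (0.92) and Plekha1 (0.91). For Timp1 it was Ccr2 (0.94), Rab27a (0.94), Clca1 (0.94), 4930523C07Rik (0.94) and 2610301B20Rik (0.93).

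**Figure D3:**
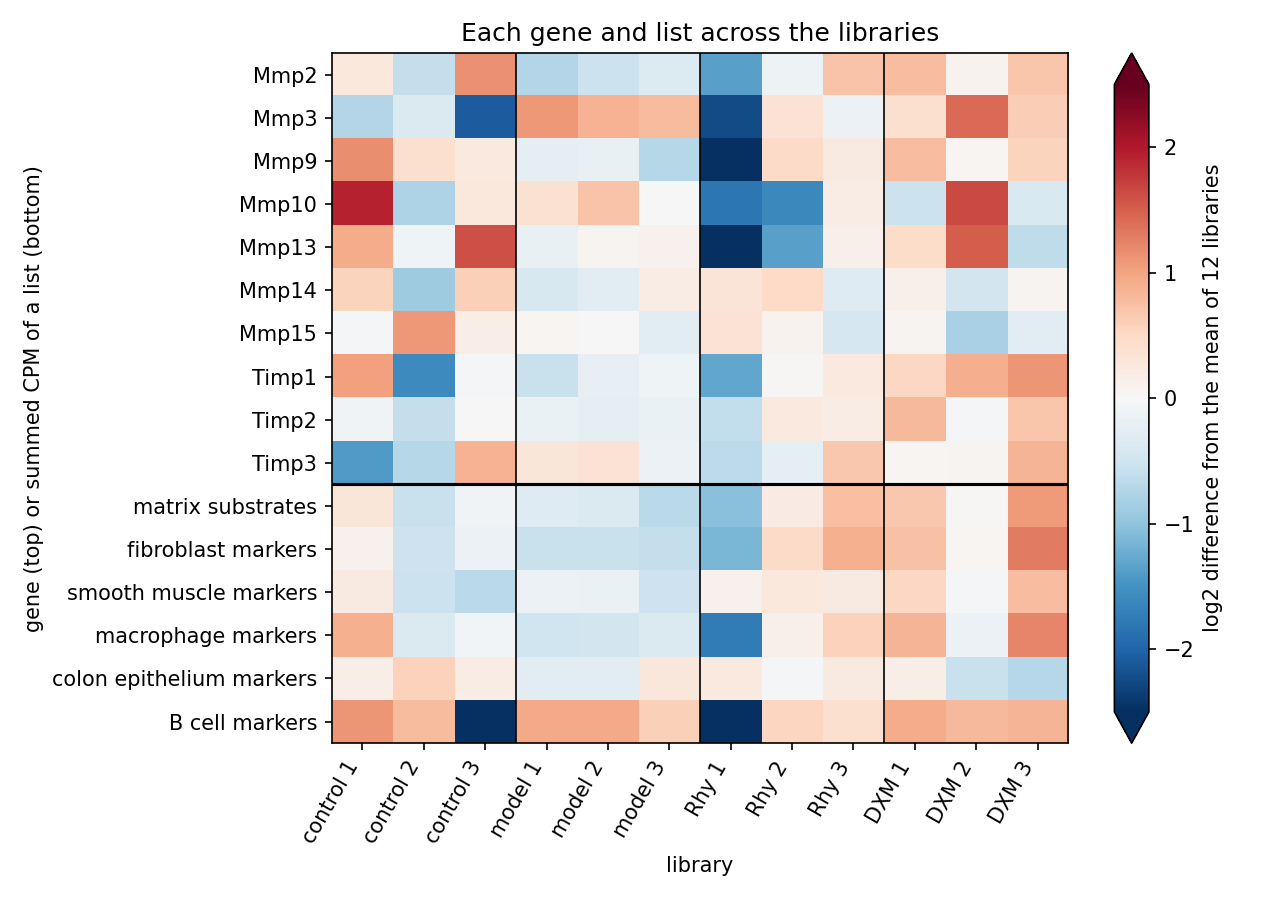
Log2 difference from the mean of the 12 libraries (colour) for each of the 10 genes and for the summed CPM of 6 lists (vertical axis) in each library (horizontal axis). Rhy 1 is low for Mmp2, Mmp3, Mmp9, Mmp10 and Mmp13 and for the macrophage, fibroblast and B cell lists.

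The other genes of the family and of its pathway were described by lists. Of 17 other MMP and TIMP genes, 10 passed the filter. In edgeR, 0 genes of any list had an adjusted p under 0.05 in any of the 5 comparisons, and counts are given at an unadjusted p under 0.05. Counts with single libraries left out are given where they differ by over 1.5 times. Of the genes at that limit, Mmp12, Cldn1, Osm, Il22 and S100a8 reached the CPM that the filter requires, 0.610, in no model library. They passed the filter through other groups, where they were higher, so they are given by their levels, are not counted as results against the model group, and remain in the list medians and in the counts under other settings. Counts under other settings therefore compare only with the counts that include these genes. For model versus control, 2 of the 10 passed, Mmp17 (0.84, p 0.0249) and Timp4 (1.40, p 0.0346), both higher. For Rhy versus model 0 of the 10 passed. For DXM versus model 2 passed, Mmp11 (1.18, p 0.0162) and Mmp23 (1.25, p 0.0263), both higher, apart from Mmp12, with which the count was 3. Mmp12 had 0.374, 0.348 and 0.220 CPM in controls 1 to 3, 0.441, 0.0607 and 0.119 CPM in models 1 to 3, 0.0856, 0.261 and 0.736 CPM in Rhy 1 to 3, and 0.617, 1.01 and 0.709 CPM in DXM 1 to 3. These counts stand beside 9.62%, 3.72% and 7.69% of all genes. These MMP and TIMP genes passing with single libraries left out numbered, in model versus control, 0 without control 2, model 1 or model 2, 1 without control 1 or control 3, and in DXM versus model, 1 without model 2, model 3, DXM 1 or DXM 3. These MMP and TIMP genes gave counts of 2, 0 and 1 without the libraries low in Hoxb13, and with model 1 and model 2 as 1 library 0, 0 and 2. Mmp12 encodes the macrophage elastase and lies between Mmp13 and Mmp3 on chromosome 9, and Timp4 encodes the fourth inhibitor of the family. Over the 10 genes, the medians of their log2 fold changes were -0.10, 0.15 and 0.73 in the model, Rhy and DXM comparisons. These MMP and TIMP medians with single libraries left out were -0.40 without model 1 to 0.50 without control 3, -0.14 without Rhy 3 to 0.47 without Rhy 1 and 0.32 without DXM 3 to 1.26 without model 1, and 0.66, 0.29 and 0.49 without the libraries low in Hoxb13.

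Activators and membrane regulators of MMPs include meprins, the proprotein convertase furin and the membrane protein basigin (Bsg). Of 19 genes, 15 passed the filter, and Plg, which encodes plasminogen, had 0 reads in all libraries. Bsg, Mep1a, Mep1b and Furin had the highest mean CPM. For model versus control, 2 of 15 had an unadjusted p under 0.05 in edgeR, both meprin genes, with log2 fold changes of -1.38 for Mep1b (p 0.00658) and -1.10 for Mep1a (p 0.0428). For Rhy versus model 1 passed, Mep1b (0.95, p 0.0418), and for DXM versus model 2 passed, Thbs1 (2.13, p 0.0264) among them, all higher. With Cldn1 these counts were 2 and 3, and the counts of this list under other settings are to be read against these. Cldn1, which encodes a tight junction protein, had 0.150, 0.626 and 0.549 CPM in controls 1 to 3, 0.441, 0.425 and 0.298 CPM in models 1 to 3, 0.599, 2.09 and 4.07 CPM in Rhy 1 to 3, and 1.51, 1.01 and 2.53 CPM in DXM 1 to 3. The 3 counts stand beside 9.62%, 3.72% and 7.69% of all genes. Thbs1, which encodes thrombospondin-1, had 41.3, 16.5 and 67.2 CPM in controls 1 to 3, 23.7, 24.6 and 27.1 CPM in models 1 to 3, 20.5, 41.3 and 75.03 CPM in Rhy 1 to 3, and 20.5, 38.7 and 269.8 CPM in DXM 1 to 3. DXM 3 was far above the other libraries, and DXM 1 lay below every model library. The activators passing with single libraries left out numbered, in model versus control, 1 without control 2, control 3, model 1, model 2 or Rhy 2, in Rhy versus model, 1 without model 1, model 2, Rhy 2 or DXM 2, and in DXM versus model, 0 without DXM 3, 5 without control 1, DXM 1 or DXM 2, 6 without Rhy 1. The activators gave counts of 3, 2 and 4 without the libraries low in Hoxb13, and with model 1 and model 2 as 1 library 1, 1 and 2. Over these 15 genes, the medians of their log2 fold changes were -0.22, 0.42 and 0.61 in the model, Rhy and DXM comparisons. Medians of the activators with single libraries left out were -0.35 without model 3 to -0.20 without control 3, 0.23 without model 2 to 0.52 without Rhy 1 and 0.39 without DXM 3 to 0.75 without DXM 2, and -0.29, 0.64 and 0.56 without the libraries low in Hoxb13. Of 15 ADAM and ADAMTS proteases, 0 passed in the first comparison, 0 in the second and 2 in the third, Adamts2 (1.27, p 0.0233) and Adamts1 (1.33, p 0.0389), both higher, beside 9.62%, 3.72% and 7.69% of all genes. Adamts2 encodes the procollagen N-peptidase. ADAM and ADAMTS genes passing with single libraries left out numbered, in model versus control, 1 without model 3, Rhy 1 or Rhy 3, in Rhy versus model, 2 without Rhy 1, and in DXM versus model, 0 without model 3 or DXM 3, 1 without model 1, 4 without control 3, 5 without DXM 2. ADAM and ADAMTS genes gave counts of 2, 0 and 2 without the libraries low in Hoxb13, and with model 1 and model 2 as 1 library 0, 0 and 1. For these proteases, the medians of their log2 fold changes were -0.19, 0.03 and 0.57 in the model, Rhy and DXM comparisons. Medians of the proteases with single libraries left out were -0.21 without model 2 to 0.06 without control 3, -0.01 without Rhy 3 to 0.34 without Rhy 1 and 0.17 without DXM 3 to 0.77 without DXM 2, and 0.06, 0.15 and 0.46 without the libraries low in Hoxb13.

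Matrix proteins are substrates of these enzymes, and all 24 genes of that list passed the filter. Their summed level was 2684, 1489.7 and 2050.5 CPM in controls 1 to 3, 1739, 1708 and 1379 CPM in models 1 to 3, 1064, 2535 and 3692 CPM in Rhy 1 to 3, and 3509, 2226 and 4576 CPM in DXM 1 to 3. Rhy 1 was the lowest library and DXM 3 the highest, and the DXM libraries lay above the model libraries. For model versus control, 22 of 24 had lower fitted levels and 0 had an unadjusted p under 0.05 in edgeR, and the median of their log2 fold changes was -0.31. For Rhy versus model 5 passed, all higher, Lum (1.30, p 0.0153), Dcn (1.38, p 0.0213), Postn (0.97, p 0.0252) and Col3a1 (1.06, p 0.0476), together with Vcan, beside 1.74% of all genes, with a median of 0.37. For DXM versus model 18 of 24 passed, all higher, beside 4.89% of all genes, with Postn (1.62, p 0.00127), Lum (1.74, p 0.00283), Fbn1 (1.35, p 0.00285) and Dcn (1.79, p 0.00533) at the smallest p, and the median was 1.06. Matrix medians with single libraries left out were -0.48 without control 2 to -0.20 without control 1, 0.06 without Rhy 3 to 0.67 without Rhy 1 and 0.84 without DXM 3 to 1.27 without DXM 2, and -0.22, 0.59 and 0.98 without the libraries low in Hoxb13. Without DXM 3 this comparison had 537 of all genes at an unadjusted p under 0.05, against 1300 with it. Matrix genes passing with single libraries left out numbered, in model versus control, 2 without control 2, in Rhy versus model, 0 without Rhy 3, 1 without model 1 or model 2, 2 without model 3 or Rhy 2, 3 without DXM 1, 10 without Rhy 1, and in DXM versus model, 7 without model 3 or DXM 3, 10 without model 2 or DXM 1. Matrix genes gave counts of 0, 7 and 18 without the libraries low in Hoxb13, and with model 1 and model 2 as 1 library 0, 2 and 10.

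Inducers of MMP genes, such as AP-1 subunits and cytokines, numbered 22, of which 19 passed the filter. For model versus control 2 passed, both lower, Jun (-1.06, p 0.00217) and Junb (-0.77, p 0.0158), beside 4.51% of all genes. Both encode subunits of AP-1. Il22, a cytokine that acts on epithelium, had 0.150, 0.209 and 0 CPM in controls 1 to 3, 0, 0 and 0 CPM in models 1 to 3, 0, 0.849 and 0.113 CPM in Rhy 1 to 3, and 0.137, 1.49 and 1.77 CPM in DXM 1 to 3. Osm, which encodes oncostatin M, had 1.42, 0.765 and 0 CPM in controls 1 to 3, 0.165, 0.364 and 0.179 CPM in models 1 to 3, 0.428, 0.392 and 0.509 CPM in Rhy 1 to 3, and 0.960, 0.723 and 1.37 CPM in DXM 1 to 3. Apart from Il22 and Osm, 1 gene passed in Rhy versus model, Tgfb3 (1.53, p 0.0286), and 3 passed in DXM versus model, Tgfb3 (1.88, p 0.0107), Il1b (1.93, p 0.0183) and Fos (0.98, p 0.0301). All were higher, beside 1.74% and 4.89% of all genes. With Il22 and Osm the counts were 2 and 5, and the counts of this list under other settings are to be read against these. The inducers passing with single libraries left out numbered, in model versus control, 1 without control 2, in Rhy versus model, 0 without model 1, model 2 or Rhy 2, 1 without model 3 or Rhy 3, and in DXM versus model, 2 without model 3 or DXM 3, 3 without model 2 or DXM 1. The inducers gave counts of 3, 2 and 4 without the libraries low in Hoxb13, and with model 1 and model 2 as 1 library 2, 1 and 3. In this list, the medians of their log2 fold changes were -0.18, 0.07 and 0.32 in the model, Rhy and DXM comparisons. Medians of the inducers with single libraries left out were -0.32 without control 3 to -0.16 without control 1, 0.01 without Rhy 2 to 0.18 without Rhy 1 and 0.20 without DXM 3 to 0.47 without model 1, and -0.25, 0.25 and 0.30 without the libraries low in Hoxb13. Il6 and Il17a did not pass the filter.

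Markers of the cell types that a piece of colon can hold are given beside these genes, and their part in the results was not tested. Of 12 fibroblast markers, of which Vim was the most abundant, 10 had an unadjusted p under 0.05 in edgeR in DXM versus model, 4 in Rhy versus model and 0 in model versus control, all higher in the drug groups, with medians of 1.21, 0.81 and -0.48. The fibroblast list shares Col1a1, Col1a2, Dcn and Lum with the matrix list. Its summed level was 809.6, 525 and 678 CPM in controls 1 to 3, 511, 515 and 498 CPM in models 1 to 3, 344, 1052 and 1399.9 CPM in Rhy 1 to 3, and 1256, 777 and 1861 CPM in DXM 1 to 3. Rhy 1 was again the lowest library and DXM 3 the highest. Over all genes 4.89% were higher in DXM versus model and 1.74% in Rhy versus model at this limit. Fibroblast markers passing with single libraries left out numbered, in model versus control, 1 without control 2, control 3 or Rhy 3, in Rhy versus model, 1 without Rhy 3, 2 without model 1 or Rhy 2, 9 without Rhy 1, and in DXM versus model, 5 without DXM 3. Fibroblast markers gave counts of 0, 8 and 10 without the libraries low in Hoxb13, and with model 1 and model 2 as 1 library 0, 3 and 6. Fibroblast medians with single libraries left out were -0.63 without control 2 to -0.28 without control 1, 0.57 without Rhy 3 to 1.17 without Rhy 1 and 0.99 without DXM 3 to 1.51 without DXM 2, and -0.47, 1.27 and 1.33 without the libraries low in Hoxb13. Of 10 smooth muscle markers, Myh11 being the most abundant, 0, 1 and 6 passed in the model, Rhy and DXM comparisons. Over all genes 9.62%, 3.72% and 7.69% passed, with 1.74% (Rhy) and 4.89% (DXM) higher. The smooth muscle markers that passed were all higher in the drug groups. The summed level of the 10 markers was 6874, 4053 and 3687 CPM in controls 1 to 3, 5276, 5215 and 4125 CPM in models 1 to 3, 6338, 7053 and 6871 CPM in Rhy 1 to 3, and 8360.4, 5693 and 9977 CPM in DXM 1 to 3. DXM 3 was the highest and control 3 the lowest, and the medians of their log2 fold changes were 0.03, 0.38 and 0.68 in the model, Rhy and DXM comparisons. Smooth muscle medians with single libraries left out were -0.21 without control 3 to 0.36 without control 1, 0.34 without model 3 to 0.47 without Rhy 1 and 0.51 without DXM 3 to 0.87 without DXM 2, and -0.10, 0.37 and 0.58 without the libraries low in Hoxb13. Smooth muscle markers passing with single libraries left out numbered, in Rhy versus model, 0 without model 1, model 2, model 3, Rhy 1, Rhy 2 or Rhy 3, 2 without DXM 3, and in DXM versus model, 1 without DXM 3, 3 without model 3, 10 without control 1 or DXM 2. Smooth muscle markers gave counts of 0, 0 and 3 without the libraries low in Hoxb13, and with model 1 and model 2 as 1 library 0, 0 and 4.

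Macrophage markers, led by C1qa, numbered 8, and 2, 1 and 4 passed at an unadjusted p under 0.05 in edgeR in these 3 comparisons. Over all genes 9.62%, 3.72% and 7.69% passed, with 4.51% lower (model), 1.74% higher (Rhy) and 4.89% higher (DXM). The macrophage markers that passed were lower in the model group and higher in the drug groups. The summed level was 233, 96.5 and 119 CPM in controls 1 to 3, 88.6, 90.6 and 96.7 CPM in models 1 to 3, 36.3, 136 and 186 CPM in Rhy 1 to 3, and 226, 113 and 290.3 CPM in DXM 1 to 3. Rhy 1, where Mmp9 had 0 reads, was the lowest library, and the medians of their log2 fold changes were -0.68, 0.37 and 1.15 in the model, Rhy and DXM comparisons. Macrophage medians with single libraries left out were -0.91 without control 2 to -0.12 without control 1, -0.07 without Rhy 3 to 0.79 without Rhy 1 and 0.89 without DXM 3 to 1.43 without DXM 2, and -0.89, 0.88 and 1.20 without the libraries low in Hoxb13. Macrophage markers passing with single libraries left out numbered, in model versus control, 0 without control 1, control 3, model 1, model 2, model 3, Rhy 2 or DXM 1, 1 without DXM 3, in Rhy versus model, 0 without model 1, model 2, model 3 or Rhy 3, 2 without Rhy 1, and in DXM versus model, 1 without model 1, model 2, model 3, DXM 1 or DXM 3, 2 without Rhy 2, 7 without Rhy 1 or DXM 2. Macrophage markers gave counts of 1, 2 and 7 without the libraries low in Hoxb13, and with model 1 and model 2 as 1 library 0, 0 and 1.

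Of 9 neutrophil markers, 4 passed the filter, Elane had 0 reads everywhere, and Mpo, Ltf, Cxcr2 and Retnlg had at most 0.261, 0.392, 0.405 and 0.348 CPM in any library. S100a8 had 3.44, 1.53 and 0.110 CPM in controls 1 to 3, 0.0552, 0.243 and 0 CPM in models 1 to 3, 0, 0.588 and 0.170 CPM in Rhy 1 to 3, and 0.411, 1.157 and 4.66 CPM in DXM 1 to 3, and S100a9 had 0.150, 1.11 and 0.110 CPM in controls 1 to 3, 0.110, 0.243 and 0.238 CPM in models 1 to 3, 0, 0.327 and 0.340 CPM in Rhy 1 to 3, and 0, 0.675 and 3.80 CPM in DXM 1 to 3. S100a9, like S100a8, reached the CPM that the filter requires in no model library and in no Rhy library, so both are given by their levels only. The mean was under 1 CPM for 7 of the 9. Ly6g had the highest level, with 2.42 to 682 CPM. Its mean was 179 CPM, against 1.03 CPM for S100a8, the next highest of the list. In model 1 and model 2 Ly6g had 116 and 117 CPM, where S100a8 had 0.0552 and 0.243 CPM. Its level is therefore not read as a measure of neutrophils. Of the other 2 genes tested, Ly6g and Csf3r, 0 passed in edgeR in the model, Rhy and DXM comparisons, beside 9.62%, 3.72% and 7.69% of all genes, and 0 passed with any single library left out.

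Of 13 colon epithelium markers, led by Krt8, 4 passed in model versus control, all lower, and 2 passed in DXM versus model, Slc26a3 higher and Cdx2 lower, while 0 passed in Rhy versus model. Over all genes 9.62%, 7.69% and 3.72% passed in these 3 comparisons. Their summed level was 29906, 39480 and 30281 CPM in controls 1 to 3, 22170, 22102 and 32274 CPM in models 1 to 3, 31289, 25783 and 30975 CPM in Rhy 1 to 3, and 29776, 18090 and 16164 CPM in DXM 1 to 3. Control 2 was the highest library and DXM 3 the lowest, and the medians of their log2 fold changes were -0.35, 0.30 and -0.23 in the model, Rhy and DXM comparisons. Epithelium medians with single libraries left out were -0.53 without model 3 to -0.28 without model 2, 0.22 without Rhy 2 to 0.38 without Rhy 1 and -0.31 without DXM 1 to -0.11 without DXM 3, and -0.51, 0.47 and -0.12 without the libraries low in Hoxb13. Epithelium markers passing with single libraries left out numbered, in model versus control, 0 without control 1, 1 without model 1 or model 2, 2 without control 2 or model 3, in Rhy versus model, 2 without Rhy 1, and in DXM versus model, 0 without control 2, model 1, model 2, model 3 or DXM 3, 1 without control 1, control 3 or Rhy 3. Epithelium markers gave counts of 4, 2 and 1 without the libraries low in Hoxb13, and with model 1 and model 2 as 1 library 1, 0 and 0.

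Of 6 endothelial markers, 0, 0 and 1 had an unadjusted p under 0.05 in edgeR in the model, Rhy and DXM comparisons, Tek being higher in the last, beside 9.62%, 3.72% and 7.69% of all genes. Endothelial markers passing with single libraries left out numbered, in model versus control, 1 without control 2, in Rhy versus model, 1 without Rhy 1 or DXM 2, and in DXM versus model, 2 without control 1, control 3, model 3 or Rhy 3, 4 without Rhy 1 or Rhy 2, 5 without DXM 2. Endothelial markers gave counts of 0, 1 and 3 without the libraries low in Hoxb13, and with model 1 and model 2 as 1 library 0, 0 and 1. Pecam1 was the most abundant, and the summed level was 41.95 to 135 CPM over the 12 libraries. Among 7 fat cell markers 6 were tested and 0, 0 and 0 passed, the summed level was 60.1 to 368 CPM with Pparg the most abundant, and Adipoq was highest in model 3, at 11.6 CPM. Pparg was highest in control 2, at 207 CPM, where Adipoq had 0.834 CPM, so the sum is not read as a level of fat cells. Fat cell markers passing with single libraries left out numbered, in model versus control, 1 without model 2, 2 without model 1 or model 3, in Rhy versus model, 3 without model 3, and in DXM versus model, 1 without DXM 1, 3 without model 3. Fat cell markers gave counts of 0, 4 and 3 without the libraries low in Hoxb13, and with model 1 and model 2 as 1 library 1, 0 and 0. Adipoq and Plin1 reached the CPM that the filter requires in model 3 but in no other model library. Fat cell counts without model 3 or without the libraries low in Hoxb13 can include them, and are not results against the model group. Their medians were 1.40, -0.75 and -1.15 with all libraries and -2.20, 3.41 and 3.24 without model 3. In model 1 and model 2, Adipoq had 0 and 0.0607 CPM and Plin1 had 0 and 0 CPM. The medians without model 3 therefore include folds over almost no reads, and their size is not an estimate. B cell markers gave 0, 0 and 0 of 6, with Cd79a the most abundant and the lowest sums in Rhy 1 and control 3. B cell markers passing in these comparisons numbered 0, 0 and 0 with single libraries left out, and 0, 3 and 0 without the libraries low in Hoxb13. Of 8 pancreatic acinar markers, Cela1 was the only gene tested, with a mean of 148 CPM, the other 7 had means under 1 CPM, and Cpa1 and Amy2b had 0 reads in every library. Cela1 was higher at an unadjusted p under 0.05 in edgeR in model versus control (0.99, p 0.0305), Rhy versus control (1.06, p 0.0218) and DXM versus control (1.46, p 0.00379). In model versus control Cela1 did not pass without control 3, model 1 or model 2, or with model 1 and model 2 as 1 library. Among 8 genes that mark position along the colon, 0, 1 and 1 passed, Hoxb9 being the lower gene in both drug comparisons, beside 9.62%, 3.72% and 7.69% of all genes. Position genes passing with single libraries left out numbered, in model versus control, 1 without control 2, in Rhy versus model, 0 without model 2, model 3, Rhy 2 or Rhy 3, 2 without Rhy 1, and in DXM versus model, 2 without control 1 or Rhy 2. Position genes gave counts of 1, 1 and 1 without the libraries low in Hoxb13, and with model 1 and model 2 as 1 library 0, 1 and 1.

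**Figure D4:**
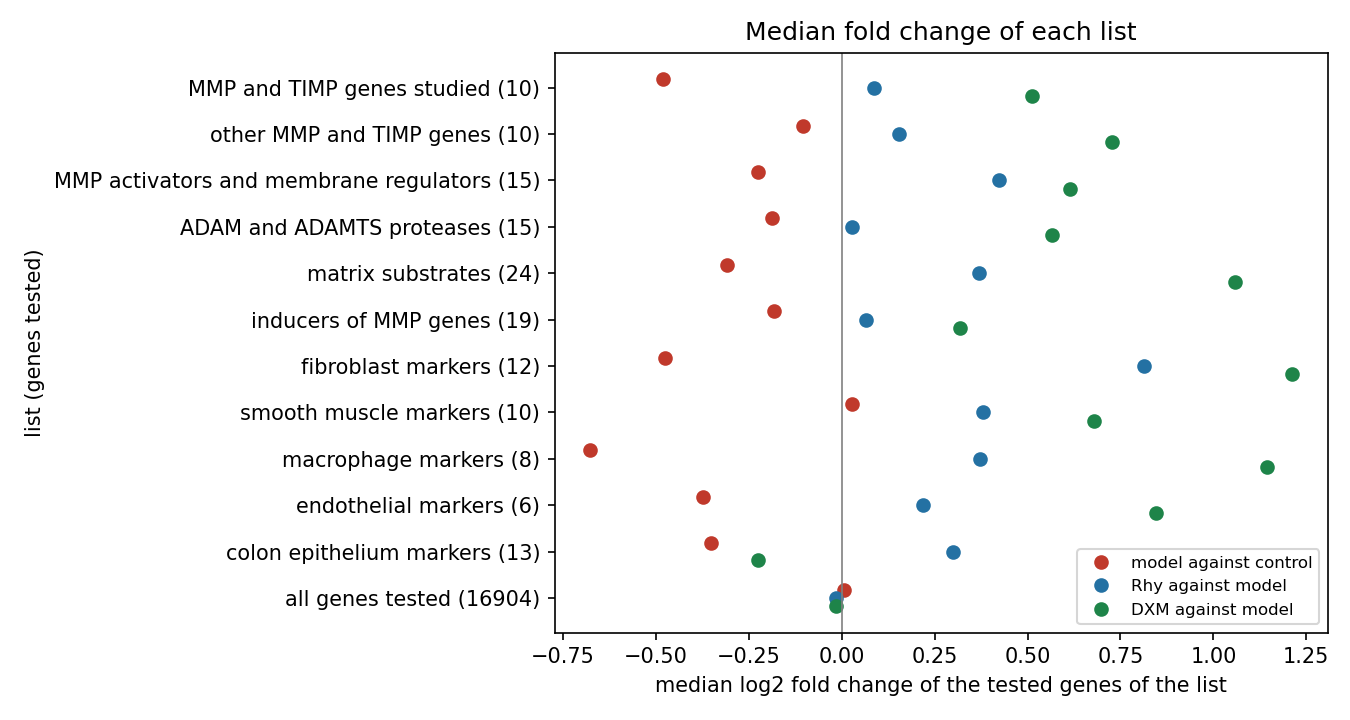
Median log2 fold change (horizontal axis) of the tested genes of each list (vertical axis, number tested in brackets) in 3 comparisons. In DXM versus model the medians of fibroblast markers (1.21), macrophage markers (1.15) and matrix substrates (1.06) lie above 1, and the medians of all 16904 genes are near 0. The neutrophil list, with S100a8 and S100a9 under the filter's CPM in all model libraries, is not plotted.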

How the data were processed

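RNA-Seq counts and FPKM values of 12 colon libraries were used. The deposited counts are whole reads per gene, not normalized, made by the authors with HISAT2 2.0.5 and featureCounts 1.5.0-p3 on mm10, as their processing notes name these tools together with DESeq2 1.16.1. The deposited FPKM values are these counts scaled by the authors to gene length and library size. Genes were kept with filterByExpr at a minimum count of 10, and edgeR 4.0.16 (R 4.3.3) fitted all 12 libraries with TMM scaling and a two-sided quasi-likelihood test, with Benjamini-Hochberg adjustment over 16904 genes. The standard error is the log2 fold change divided by the square root of F. DESeq2 1.42.0 and limma 3.58.1, with other scalings, filters, a replicate block and each library left out, served as alternatives. The 5 pairs of groups and any difference among the 4 groups were tested, and the code was checked on simulated data. Leaving out the 3 libraries low in Hoxb13 was chosen after seeing the data. Named genes of a list are up to 4 with the highest mean CPM and up to 4 with the smallest p under 0.05, except for 1 gene that is not reported here. The members and lists were chosen with earlier results of these data known. Coordinates of the 10 genes matched GENCODE M21. The DXM group is not named in the study's sequencing methods.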

Additional observations from a re-analysis of the deposited data

How the results depend on the processing

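At an adjusted p under 0.05, edgeR and limma called 0 of the 10 genes under any alternative run, and DESeq2 called 1, Mmp3 in DXM versus control. The 50 log2 fold changes of the 10 genes were recomputed under 23 alternatives, and 28 kept their sign in all that gave a value. For Mmp9 and Mmp10 22 values could not be given, since these genes did not pass the filter of limma on FPKM or, for Mmp10, of the fit to only the groups compared. Of the 10 genes, Mmp9, Mmp10, Mmp13, Mmp3 and Timp1 had the fewest reads. Whether replicate numbers pair the samples is not stated, and the main fit did not use them. In deviations from the group means, 6 of 18 same-numbered pairs correlated over 0.1. Among them were all same-numbered pairs of control and model libraries (0.212, 0.108 and 0.368). The median r was -0.027 for same-numbered pairs and 0.030 for other pairs. With the replicate block, 1820, 626 and 1244 genes had an unadjusted p under 0.05 in the model, Rhy and DXM comparisons. The causes of the changes listed here were not tested.

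With genes of any count the values were, for all genes at an adjusted p under 0.05, 1 (model versus control), 1 (Rhy versus control), 13 (DXM versus control) and 12 (any difference), and for all genes at an unadjusted p under 0.05, 972 (Rhy versus model), and for the 10 genes at an unadjusted p under 0.05, 2 (model versus control), 1 (Rhy versus model) and 2 (any difference). With only the groups compared the values were, for all genes at an adjusted p under 0.05, 1 (model versus control) and 2 (DXM versus model), and for all genes at an unadjusted p under 0.05, 2514 (DXM versus model) and 999 (Rhy versus control), and for the 10 genes at an unadjusted p under 0.05, 3 (model versus control), 4 (DXM versus model) and 0 (Rhy versus control). With DESeq2 the values were, for all genes at an adjusted p under 0.05, 46 (model versus control), 5 (Rhy versus model), 53 (DXM versus model), 33 (Rhy versus control), 1058 (DXM versus control) and 407 (any difference), and for the 10 genes at an unadjusted p under 0.05, 2 (model versus control), 1 (Rhy versus model) and 2 (any difference), and for the 10 genes at an adjusted p under 0.05, 1 (DXM versus control), and for log2 fold changes of the other sign, Timp2 -0.038 (model versus control). With model 1 and 2 summed the values were, for all genes at an unadjusted p under 0.05, 866 (model versus control), 283 (Rhy versus model) and 736 (DXM versus model), and for the 10 genes at an unadjusted p under 0.05, 0 (DXM versus model) and 0 (any difference), and for log2 fold changes of the other sign, Mmp14 -0.0054 (DXM versus model). Without the 3 libraries low in Hoxb13, which was chosen after seeing the data, the values were, for all genes at an adjusted p under 0.05, 2 (DXM versus model) and 1 (any difference), and for all genes at an unadjusted p under 0.05, 2686 (model versus control), 1453 (Rhy versus model), 3715 (Rhy versus control) and 3140 (any difference), and for the 10 genes at an unadjusted p under 0.05, 3 (model versus control), 1 (Rhy versus model) and 4 (any difference), and for log2 fold changes of the other sign, Mmp15 -0.16 (Rhy versus model), Mmp2 0.44 (Rhy versus control), Mmp14 0.14 (Rhy versus control) and Mmp13 0.23 (DXM versus control). With RLE scaling the values were, for log2 fold changes of the other sign, Timp2 -0.037 (model versus control). With limma on log2(FPKM + 1) the values were, for the 10 genes at an unadjusted p under 0.05, 1 (Rhy versus model) and 1 (DXM versus model), and for log2 fold changes of the other sign, Timp2 -0.017 (model versus control), Timp1 -0.0034 (Rhy versus model) and Mmp14 0.029 (Rhy versus control). With limma on log2(FPKM + 0.1) the values were, for all genes at an adjusted p under 0.05, 2 (Rhy versus model) and 2 (DXM versus model), and for the 10 genes at an unadjusted p under 0.05, 1 (Rhy versus model) and 1 (DXM versus model), and for log2 fold changes of the other sign, Timp2 -0.017 (model versus control), Timp1 -0.066 (Rhy versus model) and Mmp14 0.053 (Rhy versus control). With limma on all genes with FPKM above 0 the values were, for all genes at an adjusted p under 0.05, 1 (DXM versus model), and for all genes at an unadjusted p under 0.05, 1093 (Rhy versus model), and for the 10 genes at an unadjusted p under 0.05, 1 (Rhy versus model) and 1 (DXM versus model), and for log2 fold changes of the other sign, Timp2 -0.017 (model versus control), Timp1 -0.0034 (Rhy versus model) and Mmp14 0.029 (Rhy versus control). With the replicate number as a block the values were, for the 10 genes at an unadjusted p under 0.05, 1 (Rhy versus model), and for log2 fold changes of the other sign, Mmp14 0.077 (Rhy versus control). With a term for low Hoxb13 the values were, for the 10 genes at an unadjusted p under 0.05, 1 (Rhy versus model) and 1 (DXM versus model), and for log2 fold changes of the other sign, Mmp9 -0.038 (Rhy versus model), Timp1 -0.013 (Rhy versus model), Mmp10 -0.045 (DXM versus model) and Mmp14 0.0069 (Rhy versus control).

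With each library left out, the number of all genes at an adjusted p under 0.05 ran from 0 to 1 (model versus control), 0 to 1 (Rhy versus model), 0 to 1 (Rhy versus control), 0 to 4 (DXM versus control) and 0 to 1 (any difference). With each library left out, the number of all genes at an unadjusted p under 0.05 ran from 888 to 2811 (model versus control), 289 to 1066 (Rhy versus model), 537 to 1834 (DXM versus model), 1195 to 2938 (Rhy versus control), 1639 to 4075 (DXM versus control) and 1142 to 2655 (any difference). With each library left out, the number of the 10 genes at an unadjusted p under 0.05 ran from 1 to 3 (model versus control), 0 to 2 (Rhy versus model), 0 to 3 (DXM versus model), 0 to 2 (Rhy versus control), 1 to 4 (DXM versus control) and 0 to 3 (any difference). For model versus control, signs turned for Mmp10 (-1.0005 to 0.67), Timp1 (-0.88 to 0.37), Timp2 (-0.14 to 0.10) and Timp3 (-0.097 to 1.20) when 1 library was left out. For Rhy versus model, signs turned for Mmp2 (-0.088 to 0.88), Mmp9 (-0.28 to 0.78), Mmp15 (-0.096 to 0.28), Timp1 (-0.24 to 0.44) and Timp3 (-0.62 to 0.11) when 1 library was left out. For DXM versus model, signs turned for Mmp3 (-0.43 to 0.17), Mmp10 (-1.05 to 0.69), Mmp13 (-0.0079 to 1.14), Mmp14 (-0.037 to 0.29) and Timp3 (-0.13 to 0.32) when 1 library was left out. For Rhy versus control, signs turned for Mmp2 (-1.07 to 0.067), Mmp14 (-0.37 to 0.20), Timp1 (-0.81 to 0.45) and Timp3 (-0.33 to 1.07) when 1 library was left out. For DXM versus control, signs turned for Mmp2 (-0.23 to 0.63), Mmp9 (-0.36 to 0.20), Mmp10 (-1.58 to 0.97) and Mmp13 (-1.02 to 0.23) when 1 library was left out.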
